A study of Homo sapiens with 12 samples.

Results

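Mucins are large glycoproteins whose repeat domains carry dense O-linked glycans. The genes described here are the cell surface mucins MUC1, MUC4, MUC13, MUC15, MUC16 and MUC20 and the secreted, gel-forming mucins MUC5B and MUC5AC. They were chosen by name, with the earlier result in view that MUC1 and MUC5B were lower in MDA-MB-231 cells in GFOGER matrices. Of these 8 genes, 7 have an entry among the 23368 distinct genes of the count table, and MUC5AC was not analysed here. The values that led to the choice, GFOGER relative to IKVAV in MDA-MB-231 cells, are given below as a description without a test.

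RNA was sequenced from the ER− MDA-MB-231 line and the ER+ luminal T47D line, both established from breast cancer pleural effusions, on day 3 after encapsulation in a synthetic poly(ethylene glycol) hydrogel that cells can degrade. Each matrix carried a single pendant peptide, either the collagen mimic GFOGER or the laminin mimic IKVAV, and no library came from cells without a matrix. Gels were dissolved with collagenase and 3 gels were pooled for each RNA replicate, so a condition is represented by 1 cell line and by pools of gels. Counts were analysed for 11 libraries, 2 of MDA-MB-231 cells with IKVAV and 3 of each other condition, and the remaining MDA-MB-231 library with IKVAV, omitted by the authors as an outlier, was not analysed here.

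Transmembrane mucins line the apical surface of glandular epithelium, where MUC1, the best studied of them in the breast, also has a cytoplasmic tail that binds kinases and catenins. In carcinoma cells that lose polarity, MUC1 can spread over the whole cell surface, and the extracellular portions of several of these proteins are shed. Gel-forming mucins are instead packed into granules and released as polymers, mostly by airway, gut and cervical epithelium.

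Between 14338238 and 18452145 reads were counted on genes per library. The labels of the cell lines were checked with lists of 7 luminal and 7 mesenchymal or basal markers. All 7 luminal markers were lower and all 7 mesenchymal markers were higher in MDA-MB-231 than in T47D cells, with log2 differences of -8.83 for the estrogen receptor gene ESR1, -8.23 for CDH1 (E-cadherin) and 8.72 for VIM (vimentin). The libraries fall into 2 sets by the library totals that the RPKM values imply, and the set holding 5 libraries contains replicate 1 of MDA-MB-231 with IKVAV, replicate 3 of T47D with IKVAV and all T47D libraries with GFOGER. What the sets stand for is not given in the sources used here.

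MUC1 lies on the minus strand of chromosome 1 (hg19, chr1:155158300-155162706) with 1838 bases of exon. MUC4 (chr3:195473638-195538844, minus strand, 16804 exonic bases) and MUC20 (chr3:195447753-195464540, plus strand, 6647 exonic bases) are neighbours whose ends lie 9098 bases apart. MUC5B is on the plus strand of chromosome 11 (chr11:1244295-1283406) with 17916 exonic bases, and MUC16 has the longest transcript of the family (chr19:8959520-9092018, minus strand, 43816 exonic bases). MUC13 is at chr3:124624289-124653595 on the minus strand. MUC15 (chr11:26580579-26593815, minus strand) lies inside ANO3, which is on the plus strand and had at most 26 counts in a library. Because the strand setting of the counting is not given in the sources used here, reads from the stretches that MUC15 shares with exons of ANO3 (7 of 23 MUC15 exon records), or MUC5B with its antisense transcript MUC5B-AS1 in RefSeq, cannot be told apart, and reads of MUC20 may be shared with the pseudogene MUC20P1.

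The 250 bases upstream of the RefSeq start are shown for MUC1, the leading mucin of both lines, and for MUC4, the other surface mucin with over 100 counts in each MDA-MB-231 library. RefSeq promoter entries (GRCh38.p14) were found for 4 of the 7 mucins. MUC5B, MUC15 and MUC20 are named only. Capitals mark the GC box (GGGCGG on either strand, the letters bound by the SP1 family) and the TATA box (TATAAA). The MUC1 window is chr1:155192916-155193165 and the MUC4 window is chr3:195811930-195812179, both read from the minus strand, 5′ to 3′.
MUC1: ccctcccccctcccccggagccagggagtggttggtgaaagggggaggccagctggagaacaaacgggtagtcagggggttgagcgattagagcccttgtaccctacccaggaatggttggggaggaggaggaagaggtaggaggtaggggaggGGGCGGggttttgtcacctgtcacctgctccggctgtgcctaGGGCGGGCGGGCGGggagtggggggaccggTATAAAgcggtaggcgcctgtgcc
MUC4: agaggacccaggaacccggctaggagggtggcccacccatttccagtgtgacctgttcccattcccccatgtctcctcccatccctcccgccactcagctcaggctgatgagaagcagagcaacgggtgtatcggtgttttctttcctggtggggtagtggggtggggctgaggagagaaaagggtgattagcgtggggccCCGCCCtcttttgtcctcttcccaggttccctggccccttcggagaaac
The MUC1 window is 66.0% G and C and holds 4 GC boxes that begin at positions -96, -54, -50 and -46 from the start, the last 3 overlapping each other, and a TATA box at -24. The MUC4 window is 60.4% G and C and holds a GC box at -49, on the opposite strand, and no TATAAA. Among 27305 promoters of the same length, 42.3% hold a GC box and 11.1% hold TATAAA on either strand. The element GGAATG, the letters bound by TEAD factors, occurs at -140 in MUC1 and at -191 in MUC4 and in 11.9% of all promoters, and the STAT element TTCNNNGAA occurs at -11 in MUC4 and in 6.78%. These matches are descriptions of the letters and are not evidence of binding.

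In MDA-MB-231 cells, the 5 of the 7 mucins with enough reads to be fitted were lower in GFOGER than in IKVAV matrices. MUC5B was at 96.9 cpm with IKVAV and near the low level of T47D cells with GFOGER, MUC1 was 8.22-fold lower, and MUC4, MUC16 and MUC20 were lower from smaller starting levels. Levels are given as cpm, counts scaled to the library total after TMM normalization over all libraries.

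MUC1 stood at 195 and 232 cpm in the IKVAV libraries of MDA-MB-231 cells and at 25.4, 22.9 and 30.1 cpm in the GFOGER libraries. Every GFOGER library was below both IKVAV libraries, and the closest pair still differed several fold. The means were 213 ± 25.7 cpm (SD, n = 2) and 26.1 ± 3.64 cpm (SD, n = 3), a fitted log2 fold change of -3.04 (SE 0.119). In bulk RNA, fewer cells that make a transcript and less transcript per cell cannot be told apart.

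MUC5B, the secreted mucin, had 1470 and 1635 counts with IKVAV, or 95.3 and 98.6 cpm. With GFOGER it had 21, 25 and 56 counts, or 1.20, 1.54 and 3.19 cpm. The IKVAV libraries were nearly equal, and replicate 3 was the highest of the GFOGER libraries. The means were 96.9 ± 2.34 cpm (SD, n = 2) and 1.98 ± 1.06 cpm (SD, n = 3), with a log2 fold change of -5.61 (SE 0.208), the lowest of the mucins.

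MUC4, a membrane mucin that partners with the receptor ERBB2, was at 21.1 and 28.8 cpm with IKVAV and at 7.66, 6.42 and 10.8 cpm with GFOGER. The groups did not overlap, and the log2 fold change was -1.60 (SE 0.191). MUC16, the source of the CA125 antigen, was counted 30 and 38 times with IKVAV and 3, 4 and 4 times with GFOGER. These are few reads, and the counting error alone gives a ratio of IKVAV to GFOGER of 10.1 with an exact 95% interval of 5.30 to 21.2, beside a fitted log2 fold change of -3.27 (SE 0.479). MUC20, a small surface mucin that binds the receptor MET, had 26 and 40 counts with IKVAV and 13, 5 and 10 with GFOGER, with a log2 fold change of -1.91 (SE 0.440). Its groups did not overlap either.

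MUC15 and MUC13 had too few reads to be fitted in these cells. MUC15 had 0 counts in both IKVAV libraries and 5, 1 and 2 in the GFOGER libraries. MUC13 had 0 counts with IKVAV and 1, 1 and 0 with GFOGER. A count of 0 allows up to 3 counts, so neither gene can be called present or absent at this depth.

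**Figure D1:**
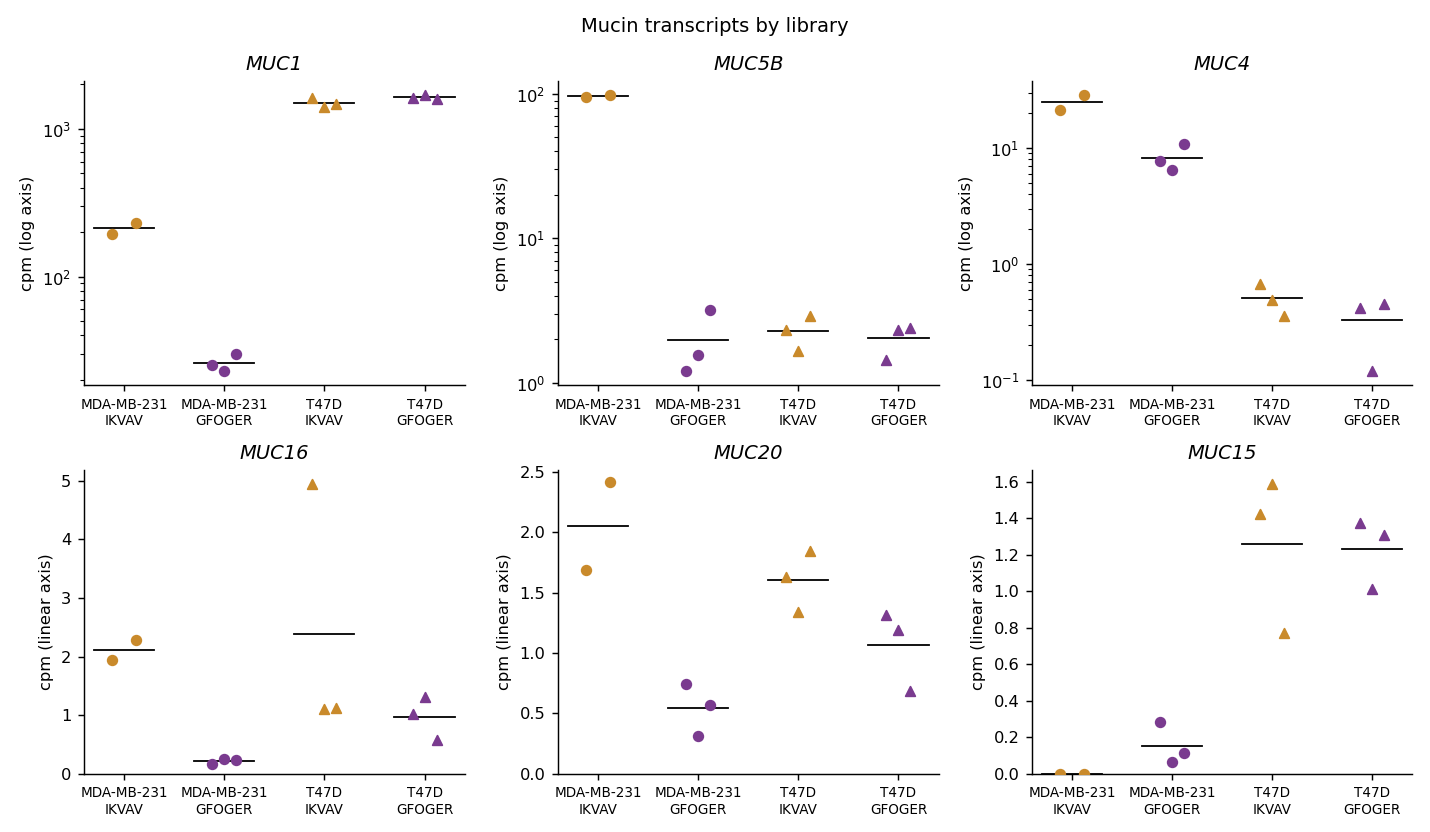
Level of 6 mucins in each library, in cpm (log axis for MUC1, MUC5B and MUC4, linear axis for MUC16, MUC20 and MUC15). Each symbol is a library (circles, MDA-MB-231; triangles, T47D; orange, IKVAV; purple, GFOGER) and each bar is the mean of a condition. MUC5B stood at 95.3 and 98.6 cpm in MDA-MB-231 cells with IKVAV and between 1.20 and 3.19 cpm in the other libraries, whereas MUC1 was at 1407 cpm or more in every T47D library.

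Because this comparison served to choose the genes, its calls describe the choice and nothing is read from them. All 5 mucins fitted in the MDA-MB-231 line met both call criteria, a Benjamini-Hochberg adjusted p under 0.05 and more than a 2-fold change, in the lower direction. The background over 14092 tested genes was 9.57% called, with 6.46% called lower and 3.11% called higher. Lower values without overlap between the groups, as in all 5 mucins, were seen in 30.7% of all genes tested.

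Other measurements moved with the same contrast. Of the 7 mesenchymal markers, 6 passed the adjusted p alone in the higher direction, of which AXL (log2 fold change 1.42) was called. ZEB1 was lower (-0.40). Over all genes tested, 42.9% passed the adjusted p alone in either direction. The summed level of the 7 mesenchymal markers was 4213 to 4306 cpm in the IKVAV libraries and 6365 to 6530 cpm in the GFOGER libraries of MDA-MB-231 cells. The summed level of the 7 luminal markers overlapped, at 571 to 589 and 513 to 626 cpm, with ESR1 at 0.531 and 0.721 cpm and FOXA1 at 1.34 and 0.713 cpm. Of these 7 markers, CDH1 alone passed the adjusted p, at 4.77 and 2.44 cpm (log2 fold change -0.97, SE 0.256, adjusted p = 0.00594, edgeR quasi-likelihood test), short of the 2-fold limit. Their part in the mucin difference was not tested. Counts on genes were 15719934 and 16902131 with IKVAV and 16703842 to 18452145 with GFOGER. The library totals that the RPKM values imply also differ, because replicate 1 with IKVAV belongs to the other set of these totals. Without that library a single IKVAV library remains, and the log2 fold change was -3.16 for MUC1, -5.64 for MUC5B, -1.80 for MUC4 and -2.14 for MUC20.

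T47D cells had no called mucin in response to GFOGER relative to IKVAV. MUC1, the dominant mucin of this line, was high in both matrices. It was at 1619, 1407 and 1477 cpm with IKVAV and at 1611, 1700 and 1599 cpm with GFOGER, and the ranges overlapped. The log2 fold change was 0.13 (SE 0.0775), with a Benjamini-Hochberg adjusted p of 0.579 by the quasi-likelihood test of edgeR.

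MUC5B was low in T47D cells, with 34, 27 and 49 counts with IKVAV and 24, 39 and 42 with GFOGER. Its log2 fold change was -0.16 (SE 0.293, adjusted p = 0.889, edgeR quasi-likelihood test). MUC15 had 21, 26 and 13 counts with IKVAV and 23, 17 and 23 with GFOGER, with a log2 fold change of -0.02 (SE 0.340, adjusted p = 0.991, edgeR quasi-likelihood test). For both genes the 2 matrices overlapped, and an adjusted p above the threshold does not show that the levels were equal.

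MUC16 had 73, 18 and 19 counts in the IKVAV libraries of T47D cells and 17, 22 and 10 in the GFOGER libraries. Replicate 1 with IKVAV stood apart from the other 5 libraries. The log2 fold change was -1.28 (SE 0.548, adjusted p = 0.407, edgeR quasi-likelihood test), and -0.21 without that replicate. Without replicate 3 with IKVAV it was -1.62 and MUC16 was called, with an adjusted p of 0.0257 in the same test. That replicate is the only IKVAV library of this line in the set of RPKM totals that holds its GFOGER libraries. Without it, matrix and set coincide and cannot be told apart. With the set as a term in the fit, the log2 fold change of MUC16 was -0.23 (adjusted p = 0.902, edgeR quasi-likelihood test).

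MUC20 was at 1.63, 1.34 and 1.84 cpm with IKVAV and at 1.32, 1.19 and 0.684 cpm with GFOGER in T47D cells. It was the 1 mucin whose groups did not overlap in this line, as was so, in the lower direction, for 7.73% of all genes tested. The log2 fold change was -0.59 (SE 0.326, adjusted p = 0.516, edgeR quasi-likelihood test). MUC4 had 2 to 10 counts in each T47D library and MUC13 had 1 count in all, and neither was fitted.

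Of the 5 mucins tested in T47D cells, 0 were called by edgeR's quasi-likelihood test, and 1, MUC16, had an unadjusted p below 0.05. DESeq2 called 0 as well, but it gave an adjusted p for MUC1 only. It could therefore not call MUC5B, MUC15, MUC16 or MUC20. Over all 13642 genes tested, 0.022% were called and 11.2% had an unadjusted p below 0.05. The libraries of a condition were not stated to come from separate passages, so p-values measure the spread between these samples, which may be technical. The difference between the responses of the 2 lines was not tested, since the response of MDA-MB-231 cells chose the genes.

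**Figure D2:**
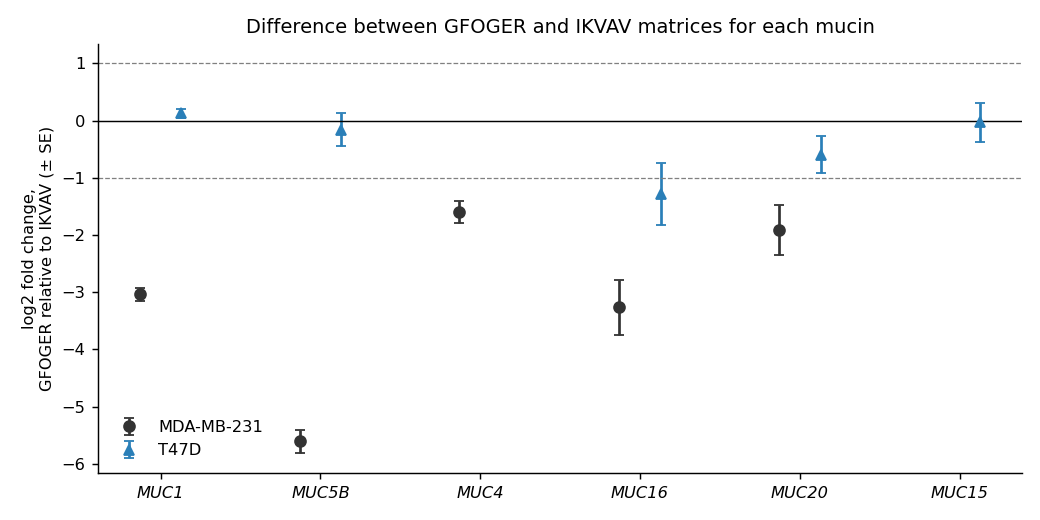
Fitted log2 fold change of each mucin in GFOGER relative to IKVAV matrices (vertical axis, bars ± SE) in MDA-MB-231 (black circles) and T47D cells (blue triangles), with dashed lines at a 2-fold change. MDA-MB-231 values run from -5.61 for MUC5B to -1.60 for MUC4, and T47D values from -1.28 for MUC16 to 0.13 for MUC1; a gene without a symbol had too few reads in that line.

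The lines themselves differed in which mucins they expressed. Averaged over both matrices, MUC1 and MUC15 were lower and MUC4 higher in MDA-MB-231 than in T47D cells. MUC5B is described below by matrix, because its average depends on the MDA-MB-231 libraries with IKVAV that served to choose it. MUC1 differed by -4.39 on the log2 scale (SE 0.0830), given without a test because its MDA-MB-231 libraries also served to choose it. Its mean was 213 cpm in MDA-MB-231 and 1501 cpm in T47D cells with IKVAV, and 26.1 and 1637 cpm with GFOGER. Its highest MDA-MB-231 library, at 232 cpm, was below the lowest T47D library, at 1407 cpm.

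MUC4 differed by 5.11 on the log2 scale in the other direction (SE 0.226, adjusted p = 2.00e-14, edgeR quasi-likelihood test). MDA-MB-231 libraries had 104 to 477 counts of MUC4 and T47D libraries 2 to 10, without overlap. MUC15 differed by -5.16 (SE 0.619, adjusted p = 2.57e-07, edgeR quasi-likelihood test), from 8 counts in all MDA-MB-231 libraries and 123 in all T47D libraries. The counts give a T47D to MDA-MB-231 ratio of 13.7, with an exact 95% interval of 6.73 to 32.4 for counting error only. The fitted difference corresponds to a larger ratio, 35.7, since the fit weights both matrices equally and MUC15 had 0 counts in MDA-MB-231 cells with IKVAV, so its size depends on the prior count.

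For MUC5B the values of the lines are given by matrix as a description. Averaged over matrices, its log2 difference was 2.67 (SE 0.201), although the lines overlapped. The mean level was 96.9 cpm in MDA-MB-231 and 2.29 cpm in T47D cells with IKVAV, and 1.98 and 2.05 cpm with GFOGER, and whether the line difference varied with the matrix was not tested. MUC16 differed by -1.14 (SE 0.439, adjusted p = 0.0221, edgeR quasi-likelihood test), also with overlap, and this call was lost without replicate 1 of MDA-MB-231 with IKVAV, replicate 1 of T47D with IKVAV or replicate 2 of T47D with GFOGER, where the adjusted p was 0.0604, 0.101 and 0.0586. MUC20 differed by -0.30 (SE 0.274, adjusted p = 0.315, edgeR quasi-likelihood test).

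In all, 5 of the 6 mucins tested between the lines were called, 2 of them higher in the MDA-MB-231 line and 3 lower. This comparison called 46.3% of 15320 genes, 23.7% higher and 22.6% lower, so a call between the lines is common. MUC5B is among those called higher and MUC1 among those called lower. Nothing is read from either call, since both depend on libraries that served to choose these genes. The median log2 difference of the 6 mucins was -0.72, with values from -5.16 to 5.11, beside -0.0150 for all genes. It includes MUC1 and MUC5B, and nothing is read from it.

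To set mucins side by side, levels were divided by exonic length and are given as cpm per kb. By this measure MUC1 was the leading mucin in every condition, with 94.1% of the summed mucin level in MDA-MB-231 cells with IKVAV, 95.0% with GFOGER and 99.9% in T47D cells with either peptide. The summed level was 123 cpm per kb in MDA-MB-231 cells with IKVAV, 15.0 with GFOGER, 818 in T47D cells with IKVAV and 891 with GFOGER. In T47D cells MUC1 ranked 23 of 18101 detected genes with IKVAV and 17 of 17930 with GFOGER. In MDA-MB-231 cells it ranked 430 of 17609 with IKVAV and 5451 of 18195 with GFOGER.

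Below MUC1, the order of the mucins differed between conditions. In MDA-MB-231 cells with IKVAV, MUC5B followed at 5.41 ± 0.131 cpm per kb (SD, n = 2) and MUC4 at 1.48 ± 0.321, with MUC20 at 0.308 and MUC16 at 0.0483. With GFOGER, MUC4 came next at 0.493 ± 0.133 cpm per kb (SD, n = 3), above MUC5B at 0.110 ± 0.0594 and MUC20 at 0.0813 ± 0.0329, and the latter pair did not differ beyond its spread. In T47D cells with GFOGER, MUC15 was next at 0.364 ± 0.0572 cpm per kb (SD, n = 3), followed by MUC20 at 0.160 ± 0.0504 and MUC5B at 0.114 ± 0.0297, again with overlapping spreads for the last pair. MUC16 was below MUC20 by this measure in each of the 4 conditions.

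The genes that serve mucins were examined in 6 lists of 105 genes in the table, none of them among the mucins above. The lists were chosen with earlier results of these data known. Their counts and p-values are therefore descriptions and not independent support. In the MDA-MB-231 line, 12 of 75 tested genes were called, 3 higher and 9 lower with GFOGER, which is 16% of the lists against 9.57% of all genes. The median log2 fold change over the 75 genes was -0.09. By the adjusted p alone, 41 of the 75 passed, 18 higher and 23 lower, beside 42.9% of all genes. In T47D cells, 0 of 67 tested genes were called by edgeR's quasi-likelihood test and 0 by DESeq2. Of the 67, 8 had an unadjusted p below 0.05, as had 11.2% of all genes.

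The secretory cell program, a list of genes made together with secreted mucins by goblet and other mucous cells, had the most calls of the 6 lists in response to GFOGER. Of its 17 genes, 8 had enough reads to be tested in MDA-MB-231 cells. Of these 8, 5 were called, all lower with GFOGER, beside 9.57% of all genes called and 6.46% called lower. The median log2 fold change of the 8 was -1.73. TFF3, a trefoil peptide secreted with gel-forming mucins, had 44 and 45 counts with IKVAV and 1, 3 and 4 with GFOGER, with a log2 fold change of -4.10 (SE 0.500, adjusted p = 7.73e-06, edgeR quasi-likelihood test). FCGBP, a mucus protein that binds to gel-forming mucins, was at 68.3 and 68.5 cpm with IKVAV and at 16.2, 14.5 and 19.6 cpm with GFOGER, with a log2 fold change of -2.03 (SE 0.128, adjusted p = 4.36e-09, edgeR quasi-likelihood test).

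AGR2, a disulfide isomerase needed to fold gel-forming mucins, fell from 27.0 and 25.3 cpm to 8.92, 9.27 and 8.72 cpm in MDA-MB-231 cells, a log2 fold change of -1.55. The protease inhibitor SLPI had 33 and 41 counts with IKVAV and 0, 13 and 9 with GFOGER, with a log2 fold change of -2.41 (SE 0.584, adjusted p = 0.00336, edgeR quasi-likelihood test). PIGR, which carries antibodies across secretory epithelium, had 38 and 42 counts with IKVAV and 14, 7 and 13 with GFOGER, with a log2 fold change of -1.91 (SE 0.388, adjusted p = 0.000873, edgeR quasi-likelihood test). The 5 genes were called whichever GFOGER library was left out. They stayed lower without either IKVAV library, which leaves a single library on that side. DESeq2 called 4 of them, all but SLPI. SPDEF, a factor of mucous cell differentiation, did not follow them, at 46.8 and 61.7 cpm with IKVAV and GFOGER. It was higher by a log2 fold change of 0.39 (SE 0.124, adjusted p = 0.0175, edgeR quasi-likelihood test), under the 2-fold limit. TFF2 was at 4.27 and 3.13 cpm (log2 fold change -0.46, not called).

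**Figure D3:**
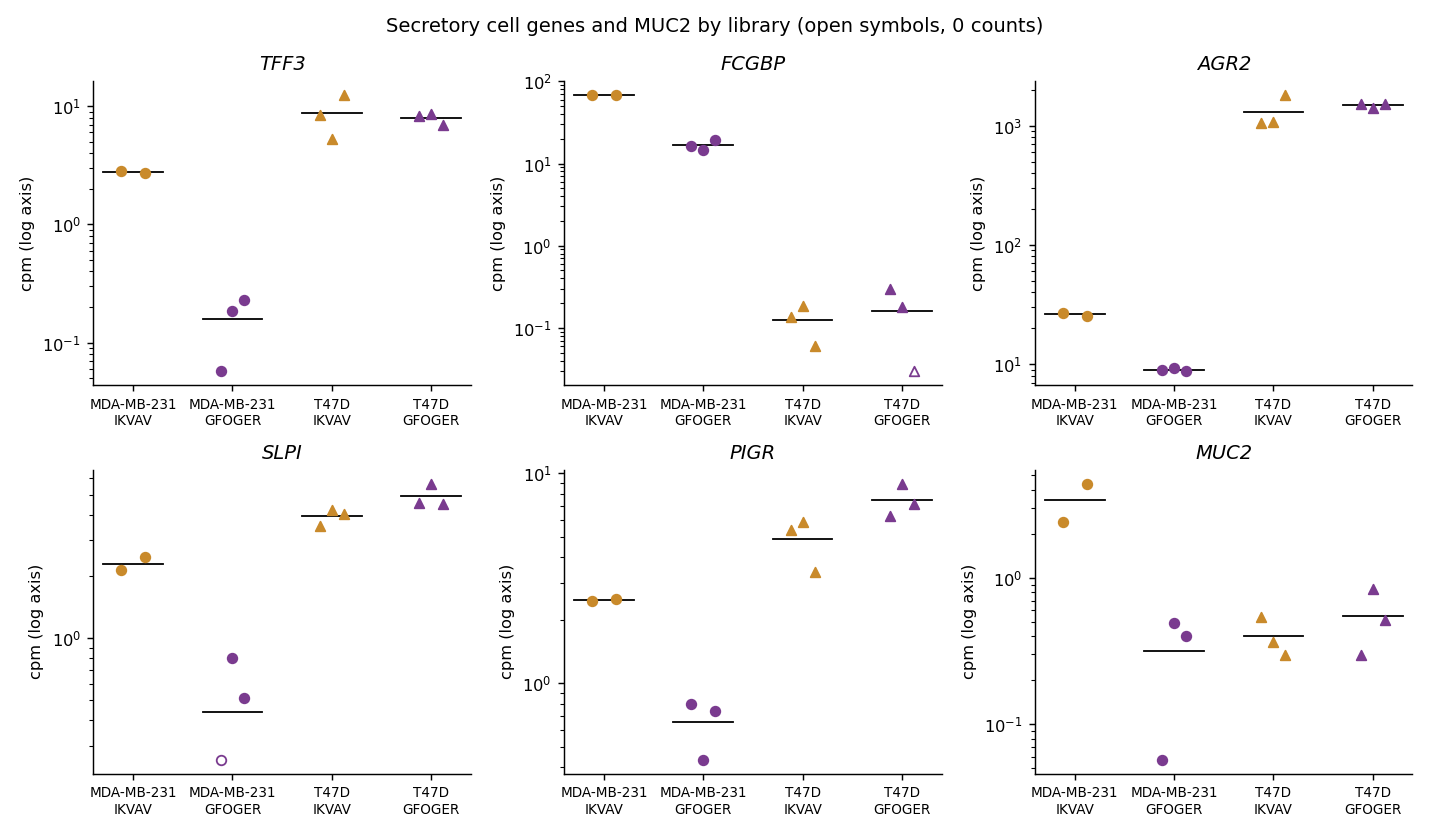
Level in each library of the 5 secretory cell genes called in MDA-MB-231 cells and of the gel-forming mucin MUC2, in cpm on a log axis (circles, MDA-MB-231; triangles, T47D; orange, IKVAV; purple, GFOGER; bars, means; open symbols at the foot of a panel, 0 counts). In each panel the GFOGER libraries of MDA-MB-231 cells lie below the IKVAV libraries of that line, as for AGR2 at 8.72 to 9.27 against 25.3 and 27.0 cpm.

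Of 12 other genes of the mucin family with an entry, 6 were tested in MDA-MB-231 cells. Of these, 3 were called, beside 9.57% of all genes. By the adjusted p alone, 2 passed higher and 3 lower, beside 42.9% of all genes. MCAM, among those higher, was short of the 2-fold limit (log2 fold change 0.85, SE 0.110, adjusted p = 1.44e-05, edgeR quasi-likelihood test). MUC2, the gel-forming mucin of the intestine, had 37 and 73 counts with IKVAV and 1, 8 and 7 with GFOGER, a log2 fold change of -3.42 (SE 0.503, adjusted p = 4.89e-05, edgeR quasi-likelihood test). OVGP1, a secreted oviduct glycoprotein, was lower by a log2 fold change of -1.10 (SE 0.299). Its value lay between -1.35 and -0.86 with each library left out in turn, and the call was lost without replicate 2 with IKVAV or replicate 3 with GFOGER. MUC22 moved in the opposite direction, from 3 and 5 counts to between 27 and 38, with a log2 fold change of 2.80 (SE 0.525, adjusted p = 0.000456, edgeR quasi-likelihood test). Not every mucin was therefore lower with GFOGER.

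Among the enzymes that build O-glycans, 1 gene was called. Of 13 GalNAc transferases tested, which attach the first sugar, 1 was called, a share of 7.69% beside 9.57% of all genes. This was GALNT14, higher with GFOGER at 5.38 against 1.65 cpm (log2 fold change 1.69, SE 0.280, adjusted p = 0.000155, edgeR quasi-likelihood test). It had 0 counts in every T47D library. Of 11 tested genes that extend or sialylate the first sugar, 0 were called by edgeR's quasi-likelihood test and 0 by DESeq2, and 6 had an unadjusted p below 0.05, as had 50.2% of all genes. By the adjusted p alone, 5 of the 11 passed, 1 higher and 4 lower, and 0 to 2 were called with each library left out in turn. The galactosyltransferase gene B4GALT5 was just short of the 2-fold limit, with a log2 fold change of -0.996 (SE 0.0841, adjusted p = 1.17e-07, edgeR quasi-likelihood test), and was called without replicate 2 with IKVAV or replicate 2 or 3 with GFOGER, and GAL3ST2 was called without the last of these. The median log2 fold change was -0.00310 for the transferases and 0.0178 for the extension genes, beside 0.00386 for all genes.

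Of 17 tested partners and sheddases of membrane mucins, 1 was called, JUP, a share of 5.88% beside 9.57% of all genes. It encodes plakoglobin, a catenin that binds the MUC1 tail, and it was lower with GFOGER at 179 against 413 cpm (log2 fold change -1.21, SE 0.106, adjusted p = 1.91e-07, edgeR quasi-likelihood test). Of 20 tested factors known to act on mucin promoters, 2 were called, a share of 10% beside 9.57% of all genes. ETS1 was higher with GFOGER at 394 against 150 cpm (log2 fold change 1.39, SE 0.0883, adjusted p = 4.69e-09, edgeR quasi-likelihood test). NOTCH3, at 1.01 against 2.28 cpm, was called lower with a log2 fold change of -1.18 (adjusted p = 0.0173, edgeR quasi-likelihood test). This call was lost without replicate 1 or 2 with IKVAV or replicate 2 with GFOGER, the value reaching -1.01, and with the set of RPKM totals as a term in the fit.

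**Figure D4:**
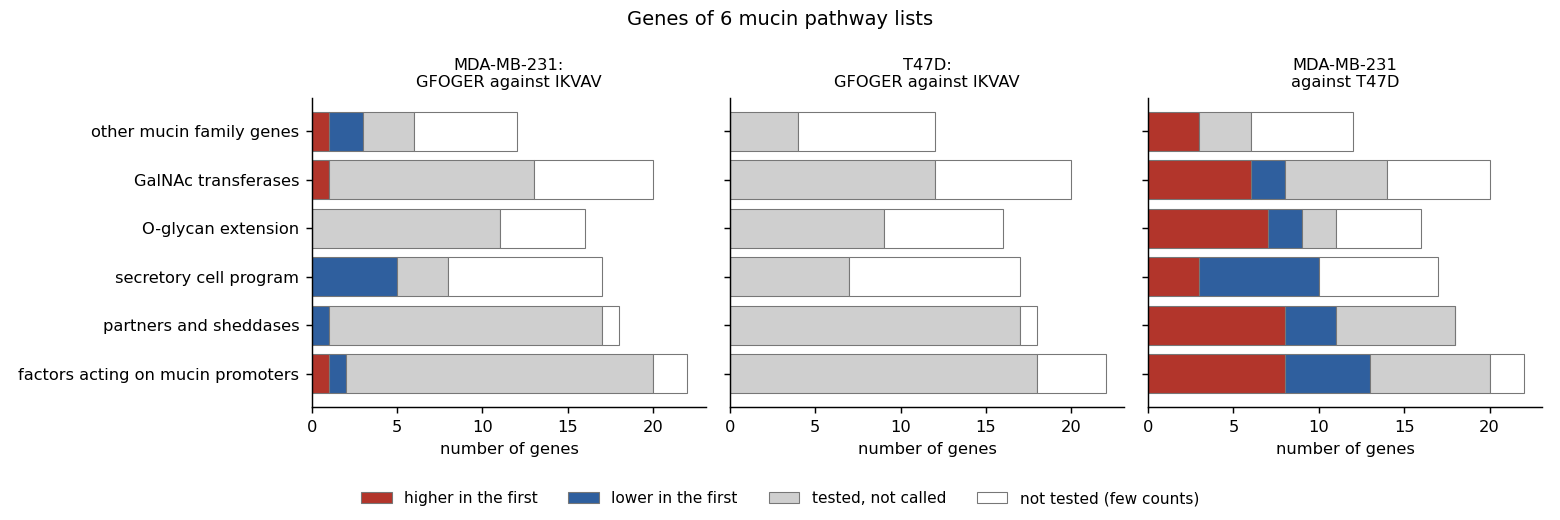
Number of genes in each of 6 mucin pathway lists (horizontal axis) that were called higher (red) or lower (blue), tested without a call (grey) or not tested for few counts (white), in 3 comparisons. The first sample type named above each panel is the one the direction refers to. In MDA-MB-231 cells 5 of 8 tested secretory cell genes were called lower with GFOGER, beside 6.46% of all genes. In T47D cells 0 of the listed genes were called.

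Between the lines, 54 of 79 tested pathway genes were called, 35 of them higher in the MDA-MB-231 line and 19 lower, which is 68.4% against 46.3% of all genes. All 10 tested secretory cell genes were called, 3 of them higher in the MDA-MB-231 line and 7 lower. Those higher were FCGBP (log2 difference 7.84), the factor CREB3L1 (7.80) and TFF2 (7.17), whereas AGR3, a relative of AGR2, was lower by a log2 difference of -8.99. The glycan branching enzyme GCNT1 was higher (7.76) and the sialyltransferase ST6GALNAC2 lower (-4.69). Among transferases, GALNT13 (6.77) and GALNT5 (3.15) were higher and GALNT6 lower (-1.75) in MDA-MB-231 cells. ERBB4, a receptor that associates with MUC1, differed by -7.26, the protease MMP14 by 9.18 and the MUC16 ligand MSLN (mesothelin) by 6.31. PGR and FOXA1, factors of luminal cells, differed by -9.05 and -9.11, and ETS1 by 9.13.

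Genes near MUC1, MUC5B and MUC4 were compared within 250 kb on either side, a window chosen after the values were seen. Over all genes tested in MDA-MB-231 cells, 9.57% were called with GFOGER relative to IKVAV. Around MUC1, 26 other genes were tested in MDA-MB-231 cells and 1 was called, PBXIP1, at a log2 fold change of -1.11. Of the closest genes, TRIM46, whose end lies 853 bases from MUC1, had too few reads in this line, as had MIR92B on the other side. THBS3, which lies 2673 bases away, had a log2 fold change of -0.99 (SE 0.150), just short of the fold limit, and KRTCAP2 one of -0.01. The median of the 26 genes was -0.05.

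Around MUC5B, 7 other genes were tested and 2 were called, MUC2 and the kinase gene BRSK2 (-1.42). TOLLIP, the nearest gene, had a log2 fold change of -0.45 and MUC6, a gel-forming mucin of the same cluster, one of 0.16. The mean level of MUC6 was between 1.33 and 2.25 cpm in all conditions, and MUC5AC of the same cluster was not analysed here. Around MUC4, 5 genes other than MUC20 were tested, 0 were called, and their values ran from -0.84 to 0.63.

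**Figure D5:**
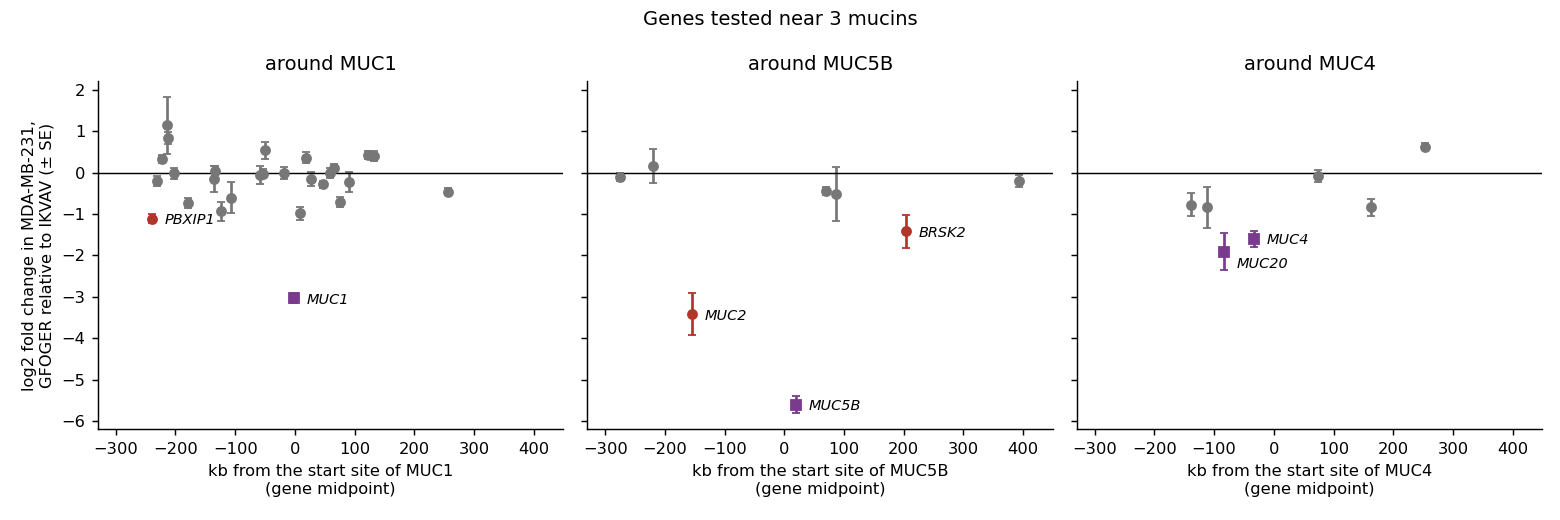
Fitted log2 fold change in MDA-MB-231 cells, GFOGER relative to IKVAV (vertical axis, bars ± SE), of genes tested near MUC1, MUC5B and MUC4, against the distance in kb of a gene's midpoint from the mucin's start site, positive toward higher genome positions. Purple squares are mucins chosen here, red circles other called genes and grey circles genes not called; MUC1 at -3.04 and MUC5B at -5.61 lie below all their neighbours.

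By Pearson's correlation of log2 cpm over the 11 libraries, the genes most like MUC1 among 11933 candidates were SPINT1 (r = 0.999), an inhibitor of surface serine proteases, CPT1A (0.999), which imports fatty acids into mitochondria, the semaphorin receptor PLXNB1 (0.998), the inositol phosphate kinase ITPKB (0.996) and ATP9A (0.996). SPINT1 was at 98.4, 22.9, 475 and 521 cpm and PLXNB1 at 32.5, 4.20, 158 and 144 cpm in MDA-MB-231 with IKVAV and GFOGER and T47D with IKVAV and GFOGER. Each was lower with GFOGER in MDA-MB-231 cells and highest in T47D cells.

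The genes most like MUC5B were RAB37 (r = 0.988), a small GTPase of secretory granules, the kinase RIPK4 (0.987), ITGA10 (0.972), the alpha chain of a collagen-binding integrin, the phosphatase gene PTPRU (0.972) and C20orf112 (0.971). ITGA10 was at 63.4 cpm in MDA-MB-231 cells with IKVAV, 11.4 with GFOGER and 12.3 and 9.91 in T47D cells with IKVAV and GFOGER. RAB37 was at 25.0, 4.45, 4.88 and 4.82 cpm in the same order. These correlations are descriptions over points that fall into 4 conditions and share library depth, and by Spearman's correlation 0 of the 5 genes were again among the closest 5 for either mucin.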

How the data were processed

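Poly(A) RNA was sequenced from MDA-MB-231 and T47D cells on day 3. Per the labels, the authors used FastQC, Trim Galore 0.4.4, TopHat2 2.1.0 with the hg19 build, SAMtools 1.4, bedtools 2.17, HTSeq 0.6.1p1 and edgeR 3.16.5. The deposited table gives whole-number counts per gene without normalization. It also holds RPKM values that the authors computed per library, used here only to sort libraries by the totals they imply, and the deposited exonic gene length in bases. It has 24656 entries, and 1288 that repeat a symbol were left out.

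Counts were tested with edgeR 4.0.16 (quasi-likelihood, TMM, filterByExpr) in R 4.3.3, with Benjamini-Hochberg adjustment over all genes tested. Each line was fitted alone for GFOGER against IKVAV, and all 4 conditions together for the lines. Calls needed an adjusted p under 0.05 and more than a 2-fold change. Members and lists were chosen with earlier results of these data known. Named genes are the members, up to 4 called genes per list and comparison with the largest fold change, the 5 genes most like MUC1 and MUC5B, overlapping and nearest genes, and 3 markers; AGR2, SPDEF, B4GALT5, GAL3ST2, AXL, ZEB1, MUC6, THBS3, KRTCAP2, PBXIP1 and BRSK2 were named after their values were seen.

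The 2 to 3 replicates per condition carry numbers, but deviations of libraries with the same number correlated at only -0.0602 to 0.017, so the numbers do not pair them. No replicates agreed within sampling noise (chi-square per gene 2.51 to 18.6). On simulated counts with a log2 change of 2, the test recovered 196 of 200 genes among 13928 in MDA-MB-231 cells. It recovered 200 of 200 among 13543 in T47D cells and 198 of 198 among 14868 between the lines. False calls numbered 0, 2 and 0 in the same order. Whether recovery is as high in the real libraries was not tested. Alternatives were DESeq2 1.42.0, upper-quartile factors, library size alone, other filters, the replicate block, the set of RPKM totals as a term, a joint fit, the adjusted p alone and leaving out each library. Leaving out either IKVAV library of MDA-MB-231 cells leaves a single library in that condition, so calls from those runs have no replicate spread on that side. Exact intervals and the floor of 3 counts cover counting error only. Between 14338238 and 18452145 counts per library limit the precision.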

Additional observations from a re-analysis of the deposited data

Results flagged for a closer look

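PIGR and SLPI were flagged because the libraries of the 2 matrices did not overlap in either line, with opposite directions. For PIGR, the mean log2 cpm (prior count of 2) with GFOGER minus that with IKVAV was -1.78 in MDA-MB-231 and 0.623 in T47D cells. For SLPI it was -2.55 and 0.308. In MDA-MB-231 cells all GFOGER libraries lay below all IKVAV libraries, and in T47D cells all lay above. Lower values without overlap in MDA-MB-231 cells were seen in 30.7% of all genes tested. The share of all genes that meets the rule in both lines is not given here. The difference between the lines was not tested for either gene. In T47D cells alone neither gene was called by edgeR's quasi-likelihood test (adjusted p = 0.330 for PIGR and 0.565 for SLPI).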

How the results depend on the processing

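No called mucin value changed its direction under any alternative run, while the uncalled T47D differences of MUC5B and MUC15 lay on both sides of 0. Only 3 mucins in MDA-MB-231 cells and 2 between the lines, with 31 pathway genes between the lines, were called when at least 10 counts were required in every library, since fewer genes were then tested. With the adjusted p alone 41 pathway genes passed in MDA-MB-231 cells. With the set of RPKM totals as a term, 2 pathway genes were called in T47D cells, where 49 of all genes were, and the cause was not tested. Leaving out 1 library at a time gave 0 to 1 mucins called in T47D cells and 4 to 5 between the lines, and 11 to 15, 0 and 53 to 56 pathway genes. All genes called in T47D cells numbered 3, and 94 without replicate 3 with IKVAV. The replicate block, which the numbers do not support as a pairing, called 0 mucins in T47D cells and 5 between the lines, and 14, 0 and 54 pathway genes in the 3 comparisons. MUC5B in MDA-MB-231 cells was -6.14 on the log2 scale with the block and also -6.14 without GFOGER replicate 3. Dividing by the genomic span in place of exonic length put MUC1 at 48.4 rather than 116 cpm per kb in MDA-MB-231 cells with IKVAV. Depth limits MUC13, MUC15, MUC16 and MUC20, which had 0 to 73 counts per library.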
